A study of Mus musculus with 3 samples.

Results

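DNA replication and G1/S genes are described here in JC cells, a line from a mouse mammary carcinoma, grown as 3 populations. The set holds 37 genes, taken by gene symbol from a list by a rule that uses no measured value, of the 55471 features in the deposited table. The list itself was drawn up with earlier results of these data known. All 37 symbols were found once, and all 37 reached 1 TPM on average across libraries, as did 14527 features in all, here called measured. TPM is a transcript level scaled for gene length and for the total of a library. The genes fall into 8 roles, from the proteins that mark and license origins to the enzymes that supply nucleotides.

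All 3 populations carry the genotype label WT, the tissue label tumor and a cell type label of epithelial-like cell, and all were grown in DMEM with serum before RNA extraction. JC-WT is the line labelled WT. JC-P was recovered from tumours of the mammary fat pad at day 14. JC-M3 came from JC-P-derived cells passed through 3 rounds of tail vein injection, each followed by recovery of lung metastases, at 28 days. JC-P and JC-M3 share the treatment label metastasis, so the fat pad origin of JC-P rests on the protocol text. The age and strain of the host mice and the number of mice behind each population are not stated in the labels used here. Each population is 1 library of polyadenylated RNA, so there was no replicate check. Every ratio below compares a pair of libraries, not conditions, and no p-value was computed.

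The libraries held 18093426, 22132593 and 23386413 gene reads, as worked back from the deposited TPM. Levels given as a series of 3 are in the order JC-WT, JC-P, JC-M3, and ratios or medians of ratios start with JC-P over JC-WT, go on with JC-M3 over JC-P and end with JC-M3 over JC-WT. Mitochondrially encoded genes took 4.51% to 5.46% of the TPM. Of 13 epithelial markers 4 were measured, and their whole list summed to 1559, 1924 and 702 TPM, nearly all of it from the keratin gene Krt8, with Epcam and Cldn7 at 0 in each library. Of the 4 measured, Krt8 stood at 1503, 1873 and 681 TPM and Krt18 at 48.6, 48.5 and 18.4 TPM, both lowest in JC-M3. Krt7 stood at 1.74, 0.583 and 1.70 TPM and Ocln at 4.06, 0.865 and 0.0345 TPM. The rest of the list, Cdh1 among them, did not average 1 TPM. How far the epithelial-like label holds in each population was not tested. The 10 fibroblast markers, 7 of them measured, summed to 222, 418 and 1093 TPM, with Lum at 0. Most of that sum was Col1a1, at 132, 261 and 949 TPM. Of the 7, 4 were higher in JC-M3 than in JC-P, with Pdgfrb at 48.7, 46.5 and 87.9 TPM and Dcn at 1.24, 14.0 and 22.5 TPM. The other 3 were lower, with Pdgfra at 34.1, 47.6 and 20.1 TPM and Col3a1 at 3.99, 46.0 and 8.76 TPM. The 8 endothelial markers summed to 7.96, 35.9 and 3.08 TPM, with 2 measured and Kdr at 0. Of 11 leukocyte markers 1 was measured and 8, Ptprc among them, were at 0, with sums of 12.4, 7.07 and 7.95 TPM. Of 8 alveolar markers 1 was measured and 5, among them the surfactant genes Sftpc and Sftpb, were at 0, with sums of 1.70, 4.47 and 3.53 TPM. Within the endothelial list Cdh5 stood at 0.0887, 17.7 and 0.104 TPM and Plvap at 7.60, 17.8 and 2.71 TPM, so both were highest in JC-P. Pecam1, at 0.150, 0.244 and 0.234 TPM, and Tek, Tie1, Emcn and Erg were below 1 TPM in every library. Whether cells of any of these types have a part in the ratios below was not tested.

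As background, a cell copies its genome once per division. In G1 the origin recognition complex, with Cdc6 and Cdt1, loads the Mcm2 to Mcm7 ring onto origins. Cyclin E with Cdk2 and the kinase Cdc7 then convert the ring into an active helicase with Cdc45 and the GINS complex, and polymerases, clamp, clamp loader and nucleotide enzymes carry out synthesis. Many of these genes are transcribed in late G1 by E2F factors once Rb proteins release them, so their transcripts are widely read as a sign of proliferation in tumour cells.

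Summed over the 37 genes, the level was 3275 TPM in JC-WT, against 2299 in JC-P and 3084 in JC-M3, which was 0.328%, 0.230% and 0.308% of all TPM. The median member stood at 58.9, 46.1 and 58.1 TPM. The set was thus lowest in JC-P, with JC-WT and JC-M3 close to each other. In bulk RNA, fewer cells in S phase and less of these transcripts per cell cannot be told apart.

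**Figure D1:**
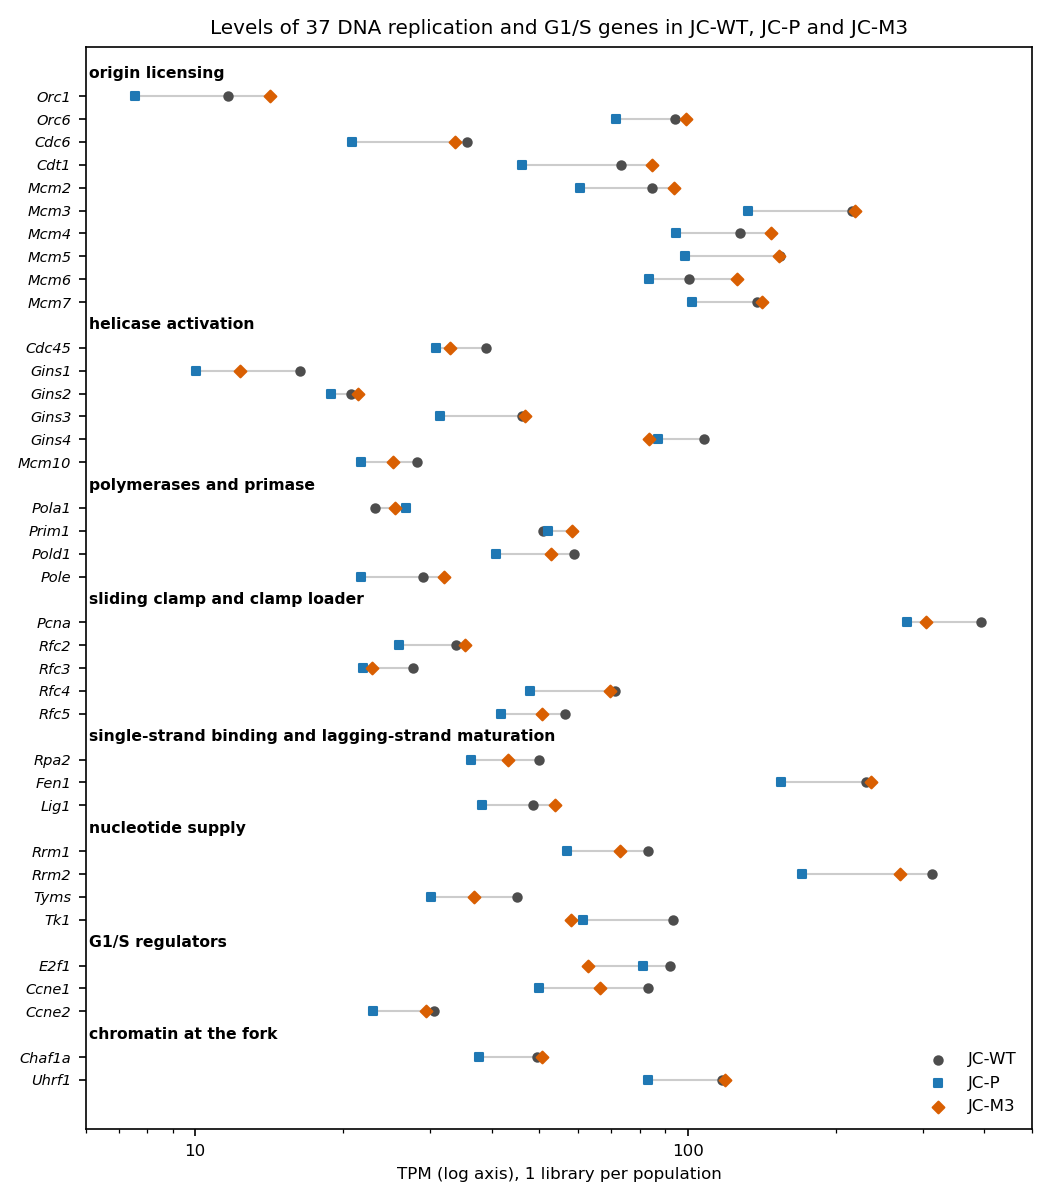
Level of each of the 37 genes in TPM (log axis) in the 3 populations, 1 library each, grouped by role. The JC-P point is the lowest of the 3 for 32 genes, and the exceptions are Pola1, Prim1, Gins4, Tk1 and E2f1.

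Of the 37 genes, 32 had their lowest level in JC-P, against 29.8% of all measured features. Pola1 and Prim1 were lowest in JC-WT, and Gins4, Tk1 and E2f1 in JC-M3. JC-WT held the highest level of 19 genes, JC-M3 that of 17 and JC-P that of Pola1 alone. Among features that average 10 TPM or more, a range nearer to that of these genes, 33.3% were lowest in JC-P.

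Ratios are given as log2 of TPM + 0.5 in one library over the other, and an interval is the exact 95% counting interval of the ratio from the recovered reads, which covers counting error only. The 37 genes held 100 to 5640 reads each, so their intervals are narrower than those of features with few reads. In JC-P over JC-WT the median of the 37 genes was -0.45, beside 0.01 for all measured features. The ratio was below 0 for 35 genes, against 49.0% of features, and the interval lay wholly below 0 for 34, against 28.1%. At least 1.5-fold lower were 9 genes, against 6.90%, and none was 1.5-fold higher, against 12.0%. Among features that average 10 TPM or more, 54.1% were below 0 and 4.44% at least 1.5-fold lower. The 9 genes were Rrm2, Cdc6, Ccne1, Mcm3, Gins1, Cdt1, Mcm5, Tk1 and Orc1. With the median ratio of each chromosome's protein-coding genes subtracted, 5 genes were at least 1.5-fold lower and all 37 were below 0. No gene reached 2-fold in either direction, against 2.33% of features lower and 4.76% higher. The ratios ran from -0.87 for Rrm2 to 0.20 for Pola1, so the lower level in JC-P was modest in size and spread over most of the set.

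In JC-M3 over JC-P the median was 0.42, beside -0.01 for all features. The ratio was below 0 for 4 genes, against 50.7% of features, and the interval lay wholly above 0 for 30, against 29.5%. At least 1.5-fold higher were 10 genes, against 10.0%: Cdt1, Orc1, Mcm3, Cdc6, Rrm2, Mcm4, Mcm5, Mcm2, Fen1 and Mcm6. None was 1.5-fold lower, against 13.3%, and none reached 2-fold, against 5.38% lower and 3.82% higher. The E2f1 interval was the one that lay wholly below 0. This comparison and the preceding one share the JC-P library, so a gene low in JC-P tends to be low in the first and high in the second, and the pair are not separate evidence.

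In JC-M3 over JC-WT the median was -0.01, beside 0.00 for all features. Of the 37 genes, 19 were below 0, against 49.7% of features. The interval lay wholly below 0 for 15, against 30.5%, and wholly above 0 for 9, against 29.6%. Tk1 was the 1 gene at least 1.5-fold lower, against 12.5%, and none was 1.5-fold higher, against 14.0%. None reached 2-fold, against 5.27% lower and 6.14% higher. As a whole the set stood near the same level in JC-M3 as in JC-WT, while its roles, with no chromosome medians subtracted, lay on different sides of 0. In this comparison the median was -0.31 on chromosome 2, which holds 4 of the 37 genes, and 0.41 on chromosome 10, which holds Prim1. Role medians were not computed with chromosome medians subtracted, so whether the roles differ apart from their chromosomes was not tested.

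**Figure D2:**
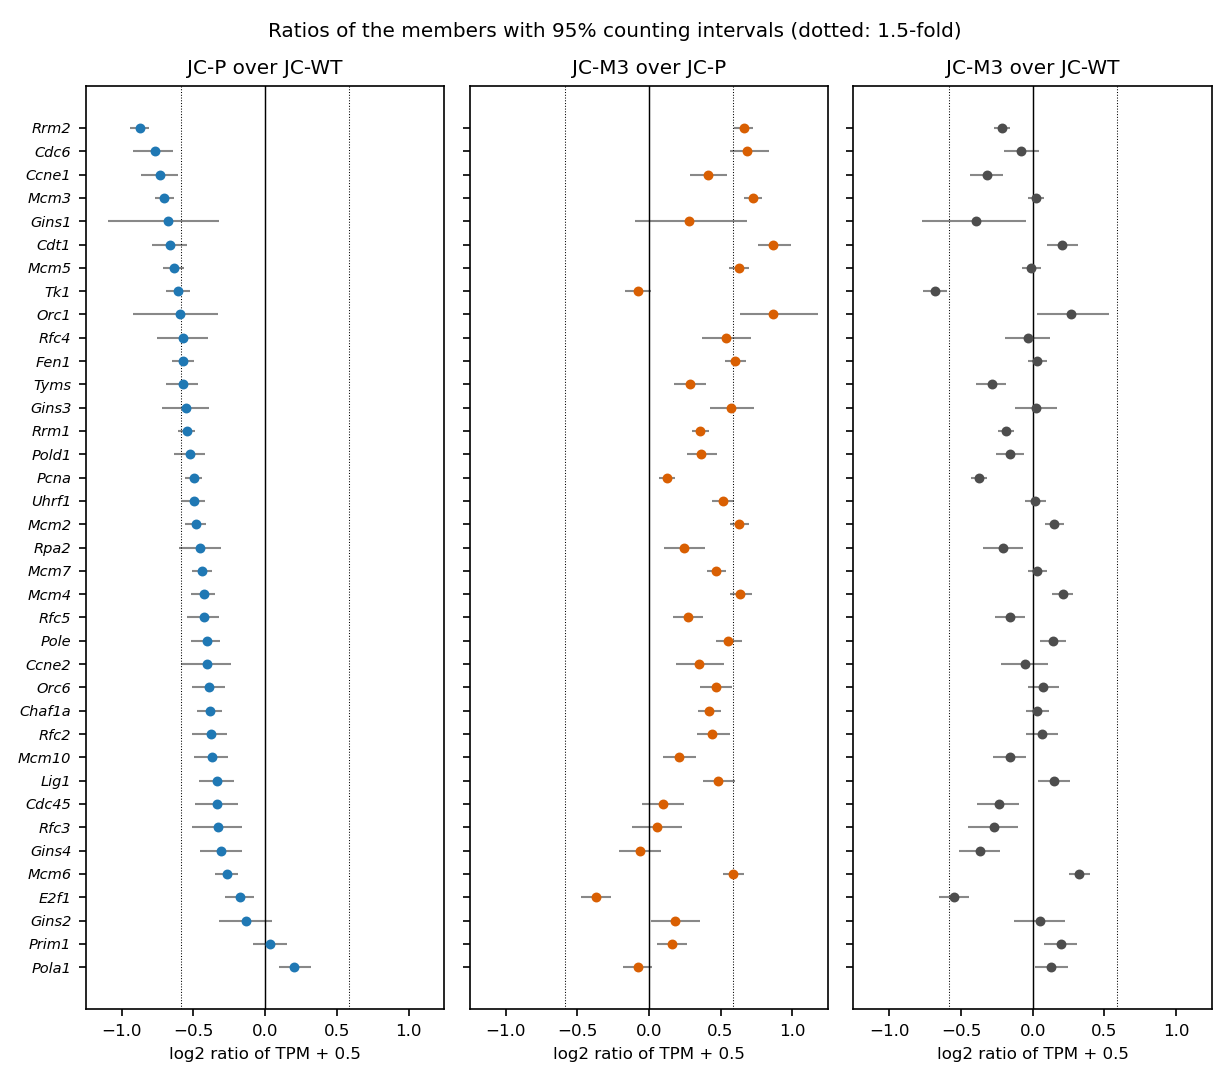
Log2 ratio of TPM + 0.5 of the 37 genes in the 3 comparisons, with 95% counting intervals as bars. Points lie mostly left of 0 in JC-P over JC-WT (35 of 37), right of 0 in JC-M3 over JC-P (33 of 37) and on both sides in JC-M3 over JC-WT.

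Origin licensing genes shared a pattern. All 10 were lower in JC-P than in JC-WT and higher in JC-M3 than in JC-P, with role medians of -0.54 and 0.63. In JC-M3 over JC-WT the median was 0.11, and 2 of 10 were below 0, against 49.7% of features. The other 8 were above 0 and had their highest level in JC-M3. The interval lay wholly above 0 for 5, against 29.6% of features, and it held 0 for Orc6, Mcm3 and Mcm7. Cdc6 and Mcm5 were the 2 with a ratio below 0 there, at -0.08 and -0.01, and both intervals held 0.

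Orc1, the largest subunit of the origin recognition complex, was the least abundant of the set in JC-WT and JC-P, at 11.7 TPM in JC-WT, against 7.57 in JC-P and 14.2 in JC-M3. It rested on 218, 173 and 338 reads, and its ratio in JC-M3 over JC-P was 0.86 (interval 0.64 to 1.18). Orc6, a smaller subunit of the same complex, stood at 94.1, 71.7 and 99.1 TPM. Both were lowest in JC-P and highest in JC-M3. Genes on the opposite strand overlap 10.8% of the Orc1 exon bases.

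The loading factors differed more between libraries than Orc6. Cdc6 (chr11:98907801-98923940, + strand, GRCm38), the ATPase that recruits the ring to the origin complex, stood at 35.7 TPM in JC-WT, against 20.8 in JC-P and 33.8 in JC-M3. Its ratios were -0.77 (interval -0.92 to -0.64) in JC-P over JC-WT and 0.69 (0.57 to 0.84) in JC-M3 over JC-P. Cdt1, the partner of Cdc6 in loading that is destroyed in S phase, stood at 73.2, 46.1 and 84.4 TPM. Its JC-M3 over JC-P ratio of 0.87 was close to that of Orc1, and these were the highest 2 of the 37. Cdt1 was 0.21 (0.10 to 0.31) higher in JC-M3 than in JC-WT.

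The 6 subunits of the Mcm2 to Mcm7 ring are the core of the replicative helicase. Mcm3 (chr1:20802968-20820312, - strand, GRCm38) was the most abundant, at 216 TPM in JC-WT, against 132 in JC-P and 219 in JC-M3. Mcm2 was the least abundant in each library, at 84.6, 60.5 and 93.8 TPM. Between them, Mcm4 stood at 127, 94.6 and 147 TPM and Mcm5 at 154, 99.0 and 153 TPM. All of these were lowest in JC-P.

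Mcm6 stood at 100.5, 83.6 and 126 TPM, and Mcm7 at 138, 102 and 142 TPM. The smallest difference of the ring in JC-P over JC-WT was that of Mcm6, -0.26 (interval -0.35 to -0.19), and the largest that of Mcm3, -0.70 (-0.77 to -0.64). Mcm6 was also 0.32 (0.25 to 0.40) higher in JC-M3 than in JC-WT, the highest of the 37 in that comparison. With the chromosome 1 median of 0.13 subtracted Mcm6 was at 0.19, and the rank is that of the ratios before subtraction. The highest subunit was 2.55 times the lowest in JC-WT, 2.19 times in JC-P and 2.34 times in JC-M3, so the ring genes kept their order at the ends while the sum went from 820.5 to 572 to 881 TPM. Of the Mcm7 transcript windows, 23.3% also occur in other genes, so its reads may be shared.

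Promoters are described at this point because origin licensing holds the windows with the most E2F letters, and those shown include Pola1 of another role. RefSeq windows from 250 bases before to 50 bases after the gene start (GRCm38.p6) were given for 30 of the 37 genes, in 35 windows, and not for Ccne2, Gins1, Gins2, Gins4, Mcm4, Pole and Rfc2. The letters searched, on both strands of the 250 bases before the start, were TTTCCCGC, TTTCGCGC, TTTGCCGC and TTTGGCGC. They occur in 9 of 35 windows (25.7%), beside 1.86% of 32851 windows in all and 3.39% of 11992 windows of measured genes. Within 100 bases of the start the shares were 11.4%, 0.846% and 1.53%. CCAAT, the letters of NF-Y binding, occur in 60.0% of the windows, beside 33.8% and 35.8%. The cell cycle homology letters TTTGAA and TTCGAA occur in 17.1%, beside 17.1% and 12.4%. The median GC content was 58.0%, beside 52.4% of all windows and 60.0% of windows of measured genes, with 17 CpG beside 6 and 16.

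The 160 bases before the RefSeq start of 4 of the 9 genes follow, each 5′ to 3′ on the strand of the gene, with E2F letters in capitals. Mcm6, Mcm5 and Cdc6 were lower in JC-P, and Pola1 was the 1 gene highest in JC-P. The windows lie at chr1:128359706-128359865 (- strand, Mcm6), chr8:75109349-75109508 (+ strand, Mcm5), chr11:98907991-98908150 (+ strand, Cdc6) and chrX:93632156-93632315 (- strand, Pola1). None holds an exon base of GENCODE M21, and the Cdc6 window lies inside the GENCODE gene, in intronic sequence.
Mcm6: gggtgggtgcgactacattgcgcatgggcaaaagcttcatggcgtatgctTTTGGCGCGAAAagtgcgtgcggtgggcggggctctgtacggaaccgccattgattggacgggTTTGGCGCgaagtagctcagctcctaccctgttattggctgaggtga
Mcm5: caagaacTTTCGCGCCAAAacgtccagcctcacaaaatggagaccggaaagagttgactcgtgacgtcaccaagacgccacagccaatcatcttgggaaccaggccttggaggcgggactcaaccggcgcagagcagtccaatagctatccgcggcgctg
Cdc6: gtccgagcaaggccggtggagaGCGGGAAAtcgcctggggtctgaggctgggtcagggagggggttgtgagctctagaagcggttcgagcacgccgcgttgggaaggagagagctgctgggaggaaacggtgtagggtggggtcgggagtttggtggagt
Pola1: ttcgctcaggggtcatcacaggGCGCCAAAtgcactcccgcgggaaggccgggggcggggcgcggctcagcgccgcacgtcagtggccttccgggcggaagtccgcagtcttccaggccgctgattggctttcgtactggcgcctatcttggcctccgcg
The Mcm6 window has matches that start 110, 106 and 47 bases before the gene start, the first 2 of which overlap on opposite strands. The Mcm5 window has an overlapping pair at 153 and 149 bases, and Cdc6 and Pola1 have a single match at 138 bases. The other 5 genes with these letters were Gins3, Mcm7, Orc1, Rfc3 and Uhrf1. In JC-P over JC-WT the median was -0.50 for the 9 genes with the letters and -0.50 for the 21 genes with a window and without them. In JC-M3 over JC-P the medians were 0.57 and 0.37, and in JC-M3 over JC-WT 0.02 and -0.16. A match of letters is a description of the window and not a binding site. Of the 9 genes 8 were below 0 in JC-P over JC-WT, beside 35 of all 37 genes and 49.0% of features.

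Helicase activation, the step that turns the loaded ring into a moving helicase, was less even. All 6 genes were lower in JC-P than in JC-WT, with a median of -0.35, but the median in JC-M3 over JC-P was 0.19 and in JC-M3 over JC-WT -0.20. Cdc45, which joins the ring as part of the active helicase, stood at 39.0 TPM in JC-WT, against 30.8 in JC-P and 33.0 in JC-M3. Mcm10, a firing factor that is not part of the ring, stood at 28.2, 21.8 and 25.2 TPM. Both were lower in JC-M3 than in JC-WT, at -0.24 (interval -0.39 to -0.09) and -0.16 (-0.28 to -0.05), although Mcm10 went to 0.14 with chromosome medians subtracted.

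The 4 GINS subunits form 1 complex in equal numbers, but their transcripts did not keep 1 pattern. Gins1 stood at 16.3, 10.0 and 12.3 TPM on 133, 100 and 128 reads, the fewest of the set in each library. Gins4 stood at 108, 87.2 and 83.5 TPM and Gins3 at 46.1, 31.3 and 46.8 TPM. Gins1 and Gins4 were lower in JC-M3 than in JC-WT, at -0.40 (interval -0.77 to -0.05) and -0.37 (-0.52 to -0.23). Gins1 is on chromosome 2, whose median in that comparison was -0.31, so most of its ratio was that of its chromosome. Gins4 is on chromosome 8, with a median of -0.03. The Gins3 interval held 0, at 0.02 (-0.12 to 0.17).

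Gins2 stood at 20.7, 18.9 and 21.5 TPM, with an interval that held 0 in JC-P over JC-WT. Of its exon bases 67.3% overlap a gene on the opposite strand. Whether the counting used strand is not stated in the notes used here, so reads of Gins2 and of that gene cannot be told apart. Gins4 over Gins1, the highest over the lowest, was 6.61 in JC-WT, against 8.69 in JC-P and 6.79 in JC-M3.

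Polymerases and primase held both genes that were not lower in JC-P. Pola1 (chrX:93304767-93632155, - strand, GRCm38), the catalytic subunit of the polymerase that starts each strand, stood at 23.2 TPM in JC-WT, against 26.8 in JC-P and 25.4 in JC-M3. Prim1, the primase that makes its RNA primers, stood at 50.9, 52.1 and 58.3 TPM. The ratios in JC-P over JC-WT were 0.20 (interval 0.10 to 0.32) for Pola1 and 0.03 (-0.08 to 0.15) for Prim1.

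Pola1 and Prim1 are on chromosomes whose genes as a whole were higher in JC-P. In JC-P over JC-WT the median over protein-coding genes was 0.24 on chromosome X and 0.19 on chromosome 10, the chromosome of Prim1. With those medians subtracted, Pola1 was at -0.03 and Prim1 at -0.15, both below 0. In JC-M3 over JC-WT the chromosome 10 median was 0.41, and Prim1 went from 0.19 to -0.22.

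The main leading and lagging strand polymerases were lower in JC-P. Pold1, the catalytic subunit of polymerase delta, stood at 58.9, 40.8 and 52.8 TPM. Pole, that of polymerase epsilon, stood at 28.9, 21.7 and 32.0 TPM. In JC-M3 over JC-WT they lay on opposite sides of 0, Pold1 at -0.16 (interval -0.26 to -0.06) and Pole at 0.14 (0.05 to 0.23).

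The sliding clamp and its loader were lower in JC-P for all 5 genes, with a median of -0.43, and were higher again only in part, with a median of 0.27 in JC-M3 over JC-P and -0.16 in JC-M3 over JC-WT. Pcna (chr2:132249162-132253314, - strand, GRCm38), the ring that holds polymerases on DNA and the most abundant of the 37 in every library, stood at 395 TPM in JC-WT, against 279 in JC-P and 305 in JC-M3. Its ratios were -0.50 (interval -0.56 to -0.44), 0.13 (0.07 to 0.18) and -0.37 (-0.43 to -0.32). The chromosome 2 median in JC-M3 over JC-WT was -0.31, and with it subtracted Pcna was at -0.07. Of the Pcna windows 19.1% occur in other genes, chiefly Pcna-ps2, which stood at 8.59, 8.96 and 7.65 TPM.

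The loader subunits stood below the clamp. Rfc4 stood at 71.3, 47.8 and 69.6 TPM, and its ratio of -0.57 in JC-P over JC-WT was just short of 1.5-fold. Rfc5 stood at 56.4, 41.8 and 50.5 TPM and Rfc2 at 33.8, 25.9 and 35.3 TPM. Rfc3 stood at 27.7, 22.0 and 22.8 TPM, so it stayed low in JC-M3, at 0.06 (interval -0.12 to 0.23) over JC-P. Genes on the opposite strand overlap 15.1% of the exon bases of Rfc2, 12.7% of those of Rfc4 and 10.7% of those of Rfc5.

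Single-strand binding and lagging-strand maturation had medians of -0.45, 0.48 and 0.03 in the 3 comparisons. Rpa2, a subunit of the protein that coats single-stranded DNA, stood at 49.9, 36.4 and 43.2 TPM. Fen1, the nuclease that trims Okazaki fragments, stood at 230.2, 155 and 235 TPM. Lig1, the ligase that joins them, stood at 48.5, 38.3 and 53.7 TPM. All 3 were lowest in JC-P. Of the Fen1 exon bases 84.2% overlap genes on the opposite strand, so its value may hold reads of those genes. Gm10143, the gene that shares the most windows with Fen1, stood at 0.280, 0.411 and 0.306 TPM.

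Nucleotide supply had the lowest role median in JC-P over JC-WT, -0.59, and all 4 of its genes stayed lower in JC-M3 than in JC-WT, with a median of -0.25 and each interval below 0. Rrm2 (chr12:24708241-24714146, + strand, GRCm38), the subunit of ribonucleotide reductase that is made in S phase, stood at 313 TPM in JC-WT, against 171 in JC-P and 270.0 in JC-M3. Its ratio of -0.87 (interval -0.94 to -0.81) in JC-P over JC-WT was the lowest of the 37. Rrm1, the large subunit, stood at 83.1, 56.9 and 72.9 TPM. The ratio of Rrm2 to Rrm1 levels was 3.77 in JC-WT, against 3.00 in JC-P and 3.70 in JC-M3.

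Both thymidylate enzymes were lower in JC-P and in JC-M3 than in JC-WT. Tyms, which makes thymidylate from deoxyuridylate, stood at 45.0, 30.1 and 36.8 TPM. Tk1 (chr11:117815526-117826092, - strand, GRCm38), the salvage kinase of thymidine, stood at 93.3 TPM in JC-WT, against 61.2 in JC-P and 58.1 in JC-M3. Tk1 stood at a like level in JC-P and JC-M3, with ratios of -0.61 (interval -0.69 to -0.53), -0.07 (-0.16 to 0.01) and -0.68 (-0.77 to -0.60) in the 3 comparisons.

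G1/S regulators were highest in JC-WT for all 3 genes. E2f1 (chr2:154559407-154569892, - strand, GRCm38), an activating E2F factor, stood at 91.9 TPM in JC-WT, against 81.2 in JC-P and 62.8 in JC-M3. It was the 1 gene of the set that was lower at both steps with both intervals below 0, at -0.18 (interval -0.28 to -0.08) and -0.37 (-0.48 to -0.27). In JC-M3 over JC-WT it stood at -0.55 (-0.66 to -0.44), just short of 1.5-fold, and at -0.24 with the chromosome 2 median subtracted.

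The cyclins that drive cells into S phase with Cdk2 were lowest in JC-P. Ccne1 stood at 83.0, 49.8 and 66.4 TPM, with -0.73 (interval -0.87 to -0.61) in JC-P over JC-WT and -0.32 (-0.44 to -0.21) in JC-M3 over JC-WT. Ccne2 stood at 30.5, 22.9 and 29.4 TPM, with an interval that held 0 in JC-M3 over JC-WT at -0.06 (-0.22 to 0.10), and 17.4% of its exon bases overlap a gene on the opposite strand. The level of Ccne1 was 2.72 times that of Ccne2 in JC-WT, 2.17 times in JC-P and 2.26 times in JC-M3.

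The 2 chromatin genes were lowest in JC-P, with medians of -0.44, 0.47 and 0.03. Chaf1a, the large subunit of the histone chaperone that works behind the fork, stood at 49.3, 37.7 and 50.5 TPM. Uhrf1, which brings the maintenance methyltransferase to new DNA, stood at 117, 83.0 and 119 TPM. In JC-M3 over JC-WT they were at 0.03 (interval -0.04 to 0.11) and 0.02 (-0.06 to 0.09). Of the Chaf1a exon bases 52.5% overlap a gene on the opposite strand, and 15.4% of the Uhrf1 windows occur in other genes.

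**Figure D3:**
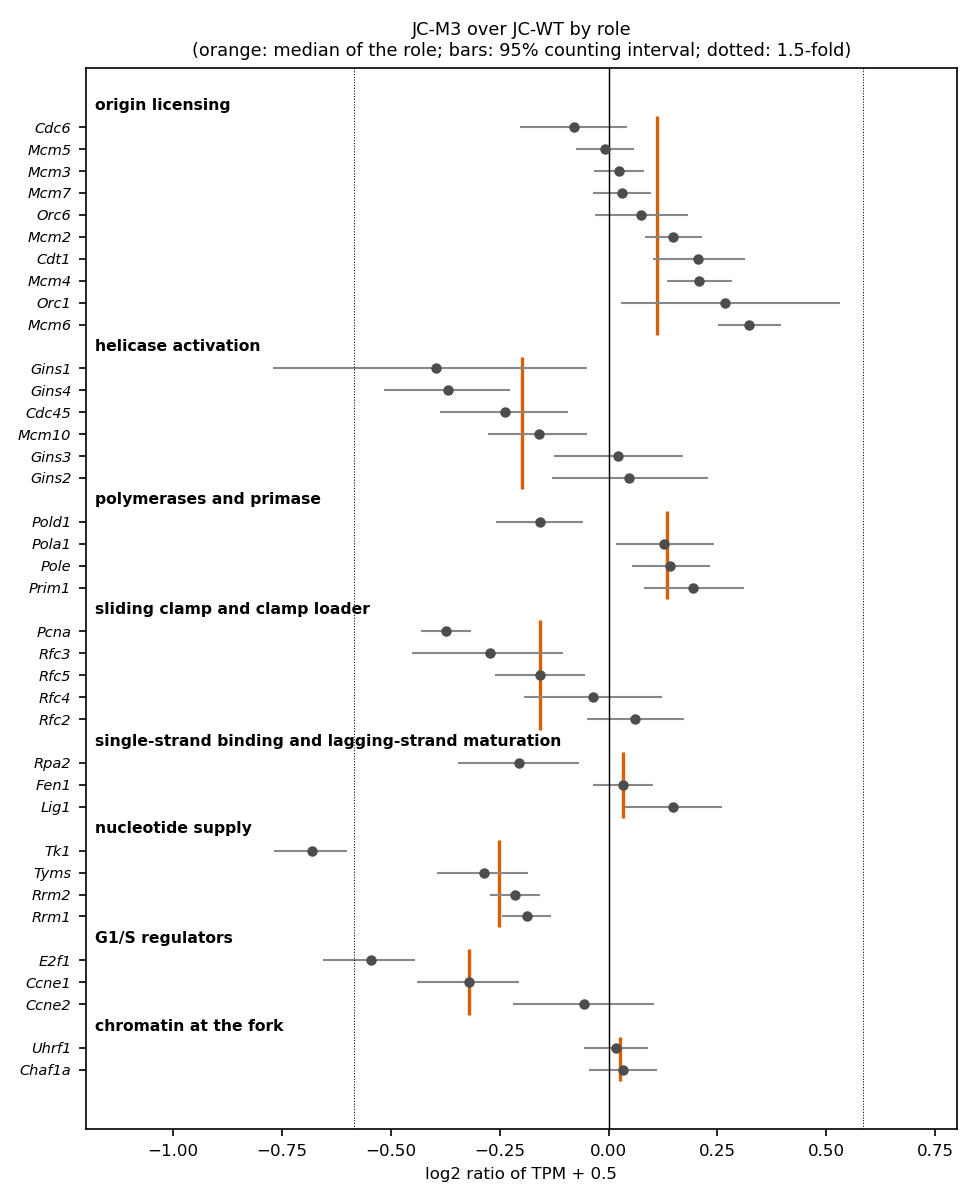
Log2 ratio of TPM + 0.5 in JC-M3 over JC-WT for the 37 genes by role, with 95% counting intervals as bars and the role median as an orange line. Chromosome medians are not subtracted. Origin licensing lies mostly right of 0 (8 of 10 genes, 5 with the whole interval). Nucleotide supply (4 of 4, all with the whole interval) and G1/S regulators (3 of 3, 2 with the whole interval) lie left of it.

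The rest of the pathway was read from lists that hold none of the 37 genes. Other replication machinery, 35 of 36 genes measured, had medians of -0.29, 0.27 and 0.02 in the 3 comparisons. Below 0 were 31 of 35 in JC-P over JC-WT, against 49.0% of features. In JC-M3 over JC-P 27 were above 0 and 8 below, against 50.7% of features below. In JC-P over JC-WT, 3 of 35 were at least 1.5-fold lower, near the 6.90% of all features, and none was higher, against 12.0%. In JC-M3 over JC-P, 8 were at least 1.5-fold higher, against 10.0%, and none was lower, against 13.3%. Dna2, a nuclease and helicase of Okazaki fragments, stood at 13.7, 7.97 and 14.9 TPM. Recql4, a helicase of origin firing, stood at 42.8, 30.9 and 58.5 TPM. Orc4 went the other way to Orc1 and Orc6, at 20.8, 29.8 and 22.6 TPM. Rpa3, the smallest partner of Rpa2, stood at 68.7, 54.8 and 38.1 TPM, lower at each step.

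Other nucleotide supply, 17 of 18 genes measured, had medians of -0.30, 0.38 and -0.02. At least 1.5-fold lower in JC-P than in JC-WT were 5 of 17, against 6.90% of all features, and none was 2-fold lower, against 2.33%. Cad, which starts pyrimidine synthesis, stood at 79.1, 40.7 and 85.4 TPM, at -0.95 and then 1.06. Dctd, which supplies Tyms with deoxyuridylate, stood at 47.3, 23.9 and 35.8 TPM. Impdh2, of guanine nucleotide synthesis, stood at 259.5, 162 and 285 TPM.

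The 9 other genes of chromatin replication had medians of -0.18, 0.37 and 0.07. Chaf1b, the partner of Chaf1a, stood at 25.9, 18.9 and 22.3 TPM. Hells, a remodeller of methylated chromatin, stood at 33.7, 26.1 and 46.6 TPM. Ssrp1, a subunit of the histone chaperone FACT, stood at 502, 443 and 369 TPM, lower at each step.

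The cyclin, Cdk and Rb-E2F genes that act above the 37, 26 of 27 measured, did not share 1 direction, with medians of -0.10, 0.20 and -0.02. In JC-P over JC-WT 18 were below 0 and 8 above, beside 49.0% of all features below. At least 1.5-fold lower were 2 and at least 1.5-fold higher 2, counts near or below the 6.90% and 12.0% of all features. Rb1, the brake on E2F, stood at 11.0 TPM in JC-WT, against 19.2 in JC-P and 10.7 in JC-M3, and its relative Rbl2 at 11.7, 14.9 and 11.7 TPM. Both were highest in the library where most replication genes were lowest, but the third member of the family, Rbl1, was highest in JC-M3, at 27.0, 31.3 and 32.6 TPM. Mybl2, an activator of late cell cycle genes, stood at 34.9, 18.9 and 23.6 TPM.

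Among the E2F factors, E2f2 was highest in JC-P, at 13.8, 21.7 and 11.7 TPM, and E2f3 stood at 43.8, 42.2 and 34.1 TPM. E2f8, a repressor, had the pattern of most of the set, at 55.5, 36.0 and 55.3 TPM, and the related E2f7 stood at 12.1, 10.9 and 19.9 TPM. Myc stood at 123, 82.7 and 105 TPM. The cyclin D1 gene Ccnd1 stood at 871, 678 and 665 TPM, and Cdk4, its kinase, at 562, 506 and 489 TPM. Cdk2, the partner of cyclin E, stood at 39.7, 38.3 and 50.4 TPM. E2f7, Cdk2 and Cdk4 are on chromosome 10, whose median in JC-M3 over JC-WT was 0.41. Their own ratios in that comparison were 0.69, 0.34 and -0.20.

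CDK inhibitors, 6 of 7 measured, had medians of 0.09, 0.00 and -0.01. Cdkn2b stood at 142, 197 and 92.5 TPM, highest in JC-P and more than 2-fold lower in JC-M3 than in JC-P at -1.09 (interval -1.21 to -0.98). Cdkn2a stood at 757, 797 and 563 TPM. Cdkn1a was low throughout, at 3.36, 5.14 and 5.00 TPM, and Cdkn1b stood at 45.5, 48.9 and 50.2 TPM.

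Mitosis and G2/M genes, 32 of 32 measured, had medians of -0.31, 0.36 and 0.10. In JC-P over JC-WT 26 were below 0, against 49.0% of features. At least 1.5-fold lower were 2, near the 6.90% of features, and none was higher, against 12.0%. In JC-M3 over JC-P 29 were above 0 and 3 below, against 50.7% of features below. At least 1.5-fold higher were 10, against 10.0%, and none was lower, against 13.3%. By sign they were thus mostly lower in JC-P as the replication genes were, and no test of a difference between the lists was made. They differed among themselves in JC-M3. Mki67, a marker of cycling cells, was higher at each step, at 174, 215 and 339.6 TPM, and so was the kinetochore motor gene Cenpe, at 46.0, 58.0 and 107 TPM. Ccnb1, the cyclin of mitotic entry, was lower at each step, at 283, 201 and 154 TPM. Foxm1, the factor that drives many of these genes, stood at 140.3, 90.0 and 141 TPM.

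**Figure D4:**
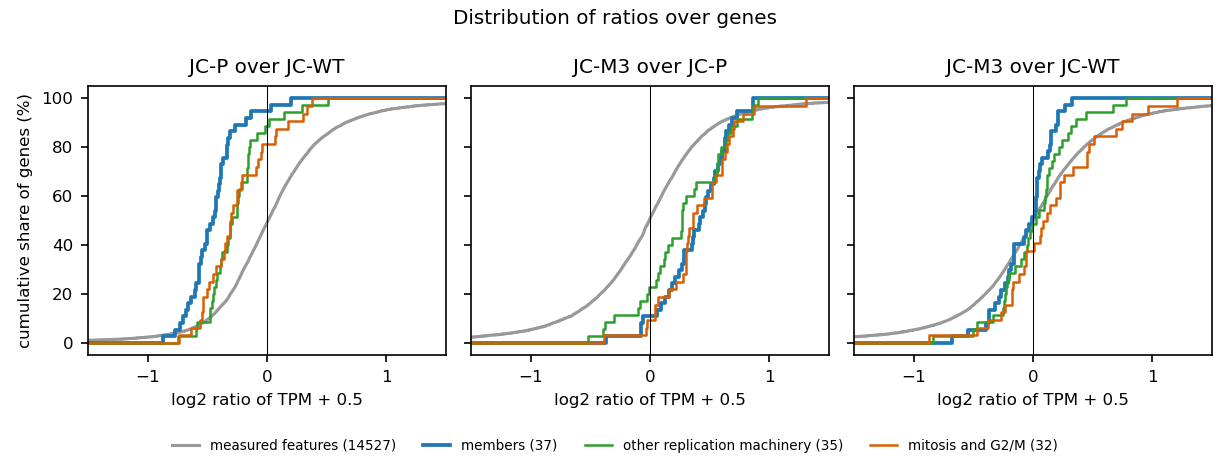
Cumulative share of genes (percent) by log2 ratio of TPM + 0.5 in the 3 comparisons, for all 14527 measured features, the 37 genes, other replication machinery (35) and mitosis and G2/M genes (32). The curve of the 37 genes lies mostly left of that of all features in JC-P over JC-WT (medians -0.45 and 0.01), mostly right of it in JC-M3 over JC-P (0.42 and -0.01), and crosses it near 0 in JC-M3 over JC-WT.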

How the data were processed

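RNA of 3 cell populations was measured, with 1 library each. The deposited table gives TPM of 55471 features per the file headers, a length-scaled level that sums to the same total in each library. Tools named in the submitters' processing notes were STAR 2.7.9a, FastQC 0.11.9 and featureCounts, with the mouse builds GRCm38 and mm10. Neither the annotation release nor the strand setting of the counting is stated in the sources used here. Reads came from TPM times the merged exon length of GENCODE M21 divided by the value of 1 read, whole within 0.01 for 98.4%, 98.5% and 98.5% of expressed features and for all 37 genes in all libraries. From them came exact conditional (Clopper-Pearson) 95% intervals, which cover counting error only.

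Ratios are log2 of TPM + 0.5 over the 14527 features that average 1 TPM or more. No count test was run. Shared sequence was the share of 50-base transcript windows found in another gene. The genes named were all 37, genes of the cyclin and inhibitor lists, the 2 highest and 2 lowest of each other list per comparison, and measured markers. The promoters printed were those with the most E2F letters whose 160 bases hold no annotated exon base, a limit added after the windows were seen. The Uhrf1 window with a match also holds no exon base and was not printed. Its match lies further from the gene start than the 160 bases. The 37 genes, their roles, all lists and the comparisons were chosen with earlier results of these data known. Alternatives were other scalings, reads scaled to the library total, pseudocounts of 0.1 and 2, no filter or a mean of at least 10, chromosome medians subtracted, a promoter window of 100 bases, and leaving out genes that share sequence. The computation was tested on simulated data. Tools were Python 3.11.15, numpy 2.4.6, pandas 2.3.3, scipy 1.17.1, matplotlib 3.10.9 and bedtools 2.31.1.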

Additional observations from a re-analysis of the deposited data

How the results depend on the processing

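No paired analysis was possible because each population has 1 library. Over the 8 other settings and the leaving out of genes described next, the median of the 37 genes ran from -0.47 to -0.40 in JC-P over JC-WT and from 0.39 to 0.44 in JC-M3 over JC-P. The count at least 1.5-fold lower in JC-P over JC-WT was 5 with chromosome medians subtracted, in place of 9. That setting moved 9 ratios of single genes to the other side of 0. In 4 of them the counting interval had excluded 0: Pola1 went to -0.0328 in JC-P over JC-WT, Prim1 to -0.0631 in JC-M3 over JC-P and to -0.22 in JC-M3 over JC-WT, and Mcm10 to 0.14 in JC-M3 over JC-WT. The other 5 had intervals that held 0: Prim1 went to -0.15 in JC-P over JC-WT, Pola1 to 0.07 in JC-M3 over JC-P, and Mcm3 to -0.10, Cdc6 to 0.01 and Mcm5 to 0.03 in JC-M3 over JC-WT. Leaving out the 11 genes that share over 10% of windows or exon bases with other genes, chosen after seeing the data, gave a median of -0.12 in JC-M3 over JC-WT. It left 21 of 26 genes lowest in JC-P, the lower count following from the fewer genes. Of 666 single-gene values, 111 per setting, 656 kept their side of 0. The exception outside the subtraction of chromosome medians was Mcm5 in JC-M3 over JC-WT, at 5.7e-04 without mitochondrially encoded genes. A change of pseudocount cannot move a ratio across 0, so the values at pseudocounts of 0.1 and 2 were certain to keep their side. The count of 656 is thus no measure of how stable the ratios are. The share of windows with E2F letters was 11.4% within 100 bases. Depth limited Gins1 and Orc1 most, with 100 to 338 reads.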

Other observations

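Replication licensing and firing control is a list of 13 genes that restrain, time or promote replication. Its medians were -0.01 in JC-P over JC-WT, 0.14 in JC-M3 over JC-P and 0.05 in JC-M3 over JC-WT. Rif1, which delays origin firing, stood at 22.9 TPM in JC-WT, against 33.4 in JC-P and 46.7 in JC-M3, just over 2-fold higher in JC-M3 than in JC-WT at 1.01 (interval 0.93 to 1.12). Atr, the kinase of replication stress, stood at 2.16, 2.41 and 4.22 TPM. Timeless, of the fork protection complex and from the list of other replication machinery, stood at 17.0, 16.1 and 29.5 TPM. Cul4b, a ligase scaffold of the complex that degrades Cdt1, stood at 67.8, 70.7 and 51.7 TPM, and Skp2, another ligase subunit, at 30.0, 23.6 and 23.7 TPM. Rif1, Atr and Timeless were highest in JC-M3, and each was named as 1 of the 2 highest ratios of its list in JC-M3 over JC-WT. The medians of their lists in that comparison were 0.05 and 0.02. Timeless, at 0.78 there, is on chromosome 10, whose protein-coding median in JC-M3 over JC-WT was 0.41.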
